A study of Mus musculus with 2 samples.

Results

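The glycolysis and hypoxia response genes are a set of 40 named genes that covers the enzymes of glycolysis by isoform, the glucose and lactate transporters, the subunits of the hypoxia inducible factor (HIF), the proteins that sense oxygen for HIF, and 8 genes known to respond to hypoxia. Each symbol was matched to its row through the Ensembl identifier, and all 40 were found among 53801 identifiers in the count files. A minimum of 10 counts in each library was met by 39 of the genes and by 13445 identifiers in all, which are called counted here. The exception was Epas1, with 12 and 7 counts.

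The data came from RNA-seq of microglia, the resident macrophages of the brain, in 2 libraries of 1 mouse each. Both mice were WT controls of genotype Cx3cr1(CreER/wt) on a C57BL/6 background, in which the Cx3cr1 promoter drives a tamoxifen-inducible Cre and 1 Cx3cr1 allele is replaced. Both received tamoxifen at 75 mg/kg/day for 4 days, had sham surgery 14 days after the first dose, and were sampled 3 days after surgery from the ipsilesional hemisphere. The series text gives males of 8 to 10 weeks, whereas the methods of the study give an older range and both sexes. The sample titles name sham surgery, and the treatment label reads none. Cells were sorted as CD11c-Ly6G-CD11b+CD45low, a gate that keeps myeloid cells with little CD45 and leaves out Ly6G+ neutrophils. Libraries from mice with middle cerebral artery occlusion (MCAO) were not analysed here. The values therefore describe sorted cells 3 days after sham surgery, and no comparison between conditions was possible.

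Library 1 held 23381026 counts on genes and library 2 held 41142609. Levels are given as CPM, each gene's count divided by its library's total and multiplied by 1000000. The 10 microglial marker genes summed to 39111 and 44410 CPM, with 6 of them higher in library 2. All were well above the floor of 3 counts in both libraries. The libraries stood apart in markers of other cells. The 12 neutrophil marker genes summed to 5095 CPM in library 1 and 62274 CPM in library 2, 11 of them were higher in library 2, and none was at 0 in either library. Erythroid markers summed to 0.214 and 14.97 CPM, with 4 of 6 at 0 in library 1, and choroid plexus markers to 23.7 and 365 CPM, with none at the floor. Border macrophage markers summed to 417 and 216 CPM, astrocyte markers to 224 and 176 CPM, oligodendrocyte markers to 233 and 239 CPM, neuron markers to 3.08 and 5.76 CPM, and endothelial markers to 18.7 and 15.5 CPM. Early response genes, which tissue dissociation can induce, summed to 15142 and 18675 CPM, though only 3 of the 7 were higher in library 2. Of the genes of the sorting gate, Ly6g, which the gate leaves out, had 15.4 and 211 CPM, and Itgax (CD11c), also left out, had 14.2 and 3.94 CPM. Itgam (CD11b) had 290 and 131 CPM and Ptprc (CD45) had 418 and 381 CPM. The part of these other cells in the levels below was not tested, and in bulk RNA a difference in the number of cells of a type cannot be told apart from a difference in RNA per cell.

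Glycolysis splits glucose into pyruvate in the cytosol and yields ATP without oxygen, and lactate dehydrogenase turns pyruvate into lactate, which restores the NAD+ that the pathway needs. HIF is a pair of an oxygen-labile alpha subunit and a stable beta subunit. In normal oxygen, prolyl hydroxylases mark the alpha subunit and VHL targets it for breakdown. When oxygen falls, or when inflammatory signals stabilise it, the pair binds hypoxia response elements and raises the transcription of glucose transporters, glycolytic enzymes and lactate exporters. In microglia this programme is known for the shift towards glycolysis that goes with inflammatory activation, and the level of the labile subunit is set mostly at the protein, which mRNA does not show.

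The core of a hypoxia response element, ACGTG or GCGTG on either strand, was counted in their promoters. Such elements were defined on genes of this kind, so the shares describe the set and are no independent feature of it. RefSeq promoters (GRCm38.p6) were matched by symbol for 36 of the 40 genes, and Slc2a3, Epas1, Bnip3l and Ndrg1 had no entry. In the 250 bases before the annotated starts, 31 of 36 genes (86.1%) held the core at least once in at least 1 of their promoters. The same share was 60.7% of 9693 genes counted in both libraries and 41.5% of all 27025 genes in the table. The ACGTG form alone was in 20 of the 36 (55.6%), against 25.2% of the counted genes and 18.5% of all. By window, 40 of 50 promoters of these genes held the core (80.0%), against 54.7% of promoters of counted genes and 38.6% of all promoters, with median GC contents of 60.4%, 59.6% and 52.4%. Gpi1, Tpi1, Eno2, Vhl and Mif had no match in this window. A match describes the letters only, and no binding was measured in these data.

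The 6 promoters below were chosen by role to show how the core lies in a glucose transporter, a glycolytic enzyme, the lactate dehydrogenase, an oxygen sensor, a mitochondrial receptor and a kinase, all of them known HIF targets. Each runs 5′ to 3′ on the gene's strand and ends 1 base before the start, and capitals mark the core on either strand. Where the palindrome CACGTG occurs, it was read once on each strand, so its overlapping reads count as 2 matches.
Slc2a1, chr4:119108495-119108744, plus strand: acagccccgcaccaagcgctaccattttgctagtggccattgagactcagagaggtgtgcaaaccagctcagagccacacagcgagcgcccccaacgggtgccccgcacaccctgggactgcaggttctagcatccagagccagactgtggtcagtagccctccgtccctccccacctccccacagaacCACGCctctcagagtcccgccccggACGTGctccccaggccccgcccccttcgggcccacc
Pgk1, chrX:106186850-106187099, plus strand: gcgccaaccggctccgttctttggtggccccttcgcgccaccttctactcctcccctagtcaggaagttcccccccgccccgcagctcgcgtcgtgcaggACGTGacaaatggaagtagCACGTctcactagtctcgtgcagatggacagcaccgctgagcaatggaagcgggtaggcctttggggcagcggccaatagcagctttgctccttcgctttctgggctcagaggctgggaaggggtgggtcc
Ldha, chr7:46845554-46845803, plus strand: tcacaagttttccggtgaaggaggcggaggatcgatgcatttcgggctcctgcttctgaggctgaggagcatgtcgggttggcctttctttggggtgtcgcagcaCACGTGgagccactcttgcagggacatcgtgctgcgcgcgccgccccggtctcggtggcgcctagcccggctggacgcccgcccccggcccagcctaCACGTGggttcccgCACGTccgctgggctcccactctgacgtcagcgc
Egln3, chr12:54203875-54204124, minus strand: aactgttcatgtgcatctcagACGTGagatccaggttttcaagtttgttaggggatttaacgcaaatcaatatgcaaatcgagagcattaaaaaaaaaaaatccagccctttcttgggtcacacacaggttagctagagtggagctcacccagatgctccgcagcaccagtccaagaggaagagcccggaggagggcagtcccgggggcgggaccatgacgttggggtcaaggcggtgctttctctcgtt
Bnip3, chr7:138909507-138909756, minus strand: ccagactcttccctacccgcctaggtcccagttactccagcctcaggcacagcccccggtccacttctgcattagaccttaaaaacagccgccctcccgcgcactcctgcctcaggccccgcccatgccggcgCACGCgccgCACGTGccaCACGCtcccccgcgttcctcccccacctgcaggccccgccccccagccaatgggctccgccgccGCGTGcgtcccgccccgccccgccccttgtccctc
Pdk1, chr2:71872974-71873223, plus strand: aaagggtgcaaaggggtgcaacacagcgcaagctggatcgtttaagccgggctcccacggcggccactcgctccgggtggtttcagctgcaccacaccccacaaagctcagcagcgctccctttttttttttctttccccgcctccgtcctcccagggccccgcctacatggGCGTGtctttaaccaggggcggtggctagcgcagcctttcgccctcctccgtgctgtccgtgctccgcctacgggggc

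Ldha held 5 matches, of which 4 came from 2 palindromes, and the nearest began 34 bases before the start. Bnip3 also held 5, of which 2 came from 1 palindrome. Slc2a1 and Pgk1 held 2 each, and Egln3 and Pdk1 held 1 each, in Egln3 at 229 bases before the start and in Pdk1 at 78. The number of matches and the level in these microglia did not run in parallel in these 6 genes. Ldha, with 5, was at 524 and 615 CPM, and Bnip3, also with 5, was at 26.9 and 35.1 CPM.

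As a group, the 40 genes summed to 5973 CPM in library 1 and 6984 CPM in library 2 (6478 ± 715 CPM, SD, n = 2). Lower glycolysis held the largest part, with 2459 and 3041 CPM over 10 genes. The 4 lactate genes followed with 1198 and 1718 CPM, and the 8 hypoxia response targets summed to 731 and 776 CPM. Among the 39 counted genes, 9 were above the 90th percentile of all counted genes per kb of transcript in both libraries, 21 above the 75th and 30 above the 50th. Eno1, Aldoa, Pkm, Ldha and Ldhb were all above the 98th percentile in both, whereas Eno2 was below the 10th.

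**Figure D1:**
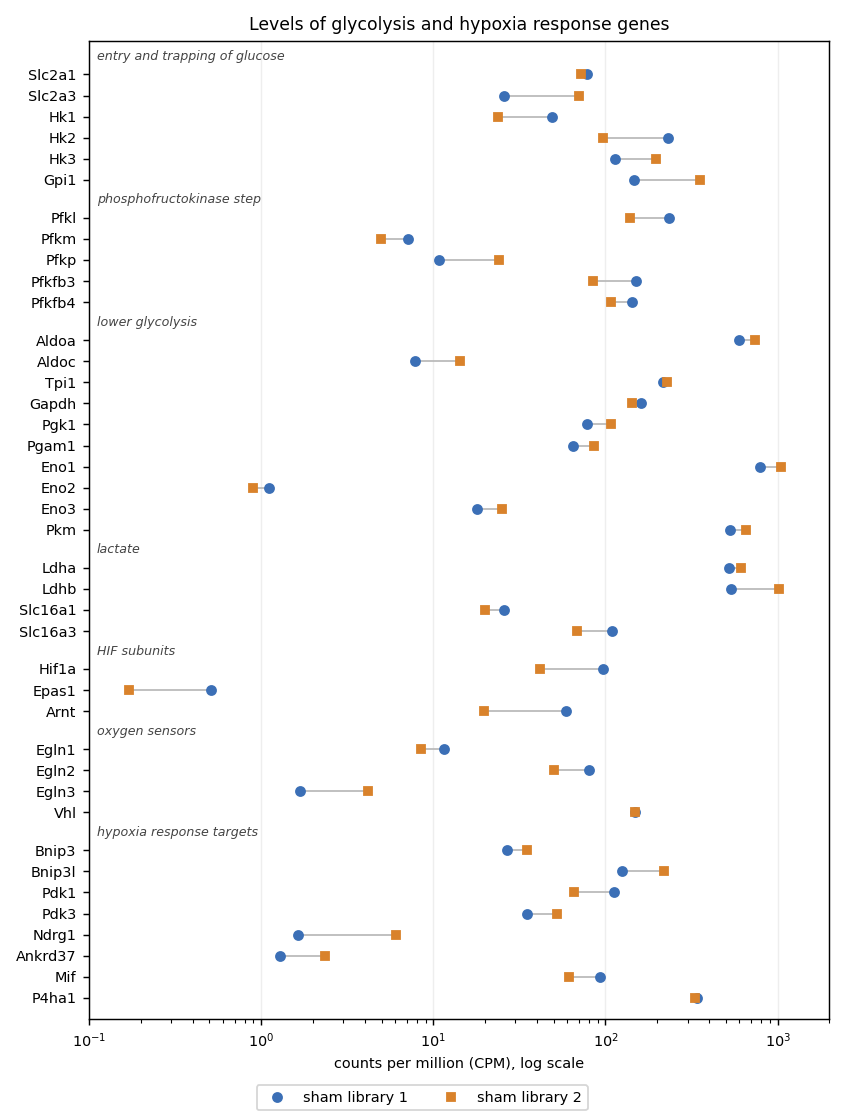
CPM on a log axis for each of the 40 genes in sham library 1 (circles) and sham library 2 (squares), grouped by role, with a line joining the 2 mice. Eno1 is at the top with 791 and 1041 CPM and Epas1 at the bottom with 0.513 and 0.170 CPM, and the longest lines belong to Ndrg1, Arnt, Slc2a3 and Epas1.

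Glucose enters through facilitative transporters. Slc2a1 (GLUT1, chr4:119108711-119137983, plus strand, GRCm38), the transporter of most cells, had 77.6 and 72.2 CPM. Slc2a3 (GLUT3, chr6:122727809-122801640, minus strand), the high-affinity transporter best known from neurons, had 25.7 and 69.9 CPM. Slc2a1 was steady between the mice and Slc2a3 was not. Per kb of transcript, Slc2a1 took 85.3% and 66.5% of the pair. The pathway list held more abundant family members. Slc2a5, a fructose transporter, had 940 and 1244 CPM or 297 and 394 CPM per kb. Slc2a8, named after its values were seen, had 109 and 92.2 CPM or 35.1 and 29.6 CPM per kb. It was above Slc2a1 in both mice by either measure.

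Hexokinases trap glucose as glucose-6-phosphate. Hk2 (chr6:82725025-82774454, minus strand), the inducible isoform that binds mitochondria, was measured at 230.0 CPM in the first mouse and 97.2 CPM in the second. Hk3 (chr13:55005985-55021385, minus strand), an isoform of myeloid cells, had 114 and 198 CPM. The broadly expressed Hk1 had 49.0 and 23.9 CPM. The leading isoform therefore changed from mouse to mouse. Per kb, Hk2 was 47.1% and 20.8% of the 3 isoforms, Hk3 40.01% and 72.6%, and Hk1 12.9% and 6.60%. In plain counts, Hk2 was 58.5% (95% Wilson interval 57.5 to 59.5) in library 1 and 30.5% (29.7 to 31.3) in library 2, so counting error was far smaller than the gap between the mice. Gpi1, which isomerises glucose-6-phosphate to fructose-6-phosphate, had 146 and 355 CPM.

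Phosphofructokinase is the main control step. The liver isoform Pfkl had 233 and 139 CPM, against 7.10 and 4.96 CPM for the muscle isoform Pfkm and 10.7 and 24.0 CPM for the platelet isoform Pfkp. Pfkl was the dominant isoform in both mice, with 94.4% and 89.3% of the family per kb (91.8 ± 3.63%, SD, n = 2). Pfkfb3 and Pfkfb4 make and break down the sugar phosphate that activates phosphofructokinase. Pfkfb3 had 150.0 and 84.7 CPM and Pfkfb4 had 143 and 107 CPM. Per kb Pfkfb4 was the larger with 56.8% and 63.5%, while in plain counts Pfkfb3 was the larger in library 1, so their order depends on the length correction. The 5 genes of this step summed to 544 and 360 CPM.

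Lower glycolysis, from aldolase to pyruvate kinase, held the abundant enzymes. Eno1 (chr4:150236721-150248879, plus strand), the ubiquitous enolase, had 791 and 1041 CPM (916 ± 176 CPM, SD, n = 2). Aldoa, the aldolase of muscle and most other tissues, had 594 and 741 CPM (668 ± 104 CPM). Pkm, the pyruvate kinase gene, had 527 and 656 CPM (591 ± 90.7 CPM), and its splice forms M1 and M2 are not separated by counts per gene. By CPM the 10 genes were within 2-fold between the mice, as were 68.3% of all counted genes, with 8 higher and 2 lower in library 2. Another scaling (edgeR's TMM) put Aldoc past 2-fold, at a log2 ratio of 1.08, and turned Gapdh from lower to higher, at 0.04. Tpi1, the triose phosphate isomerase, had 215 and 228 CPM. Pgk1, the first ATP-yielding enzyme, had 77.8 and 108 CPM, and Pgam1, a phosphoglycerate mutase, had 65.2 and 85.7 CPM. These 3 enzymes differed by 1.39-fold at most.

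Tissue isoforms were minor here. Aldoc, the aldolase of astrocytes and neurons, had 7.87 and 14.2 CPM and was 0.731% and 1.05% of the aldolase pair per kb. Eno3, the muscle enolase, had 18.0 and 24.96 CPM, and Eno2, the neuronal enolase, had 1.11 and 0.899 CPM from 26 and 37 counts. Eno1 made up 97.0% and 96.9% of enolase per kb. A second identifier that the annotation also names Aldoa (chr7:126800790-126809108) carried 6 and 4 counts and was left out of the level.

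Gapdh, the glyceraldehyde-3-phosphate dehydrogenase often used as a reference gene, had 161 and 142 CPM, or 49.1 and 43.1 CPM per kb of its longest transcript and 114 and 99.9 CPM per kb of its longest protein-coding transcript. This level is uncertain. The annotation holds 165 pseudogenes that match the Gapdh transcript at 90% identity or more, and 150 of them carried counts. Together they held 1591 counts in library 1 and 2773 in library 2, beside 3775 and 5835 on Gapdh itself, which is 29.6% (95% Wilson interval 28.4 to 30.9) and 32.2% (31.2 to 33.2) of the sum. Reads that fit a gene and its copy equally may have been split or dropped, and the counting rule for them was not given in the sources used here. Of the other 12 genes with such pseudogenes, none had more than 1.41% of its sum on them. A small share does not settle these levels, because reads dropped for fitting equally well would be missing from both gene and copy. Pgk1 and Pgam1 had pseudogenes at up to 100% identity, and Eno1 at up to 99.6%. Eno1b, a protein-coding copy of Eno1, carried 78 and 223 counts.

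Lactate dehydrogenase was led by the subunit that is not the known HIF target. Ldhb (chr6:142490249-142507957, minus strand), which encodes the heart-type subunit that favours the use of lactate, had 539 and 1015 CPM (777 ± 337 CPM, SD, n = 2). Ldha (chr7:46841475-46855627, plus strand), which encodes the muscle-type subunit that favours lactate production and is induced by HIF, had 524 and 615 CPM (569 ± 64.4 CPM). Ldhb was the larger of the pair in both mice, with 58.9% and 69.7% per kb and 50.7% (95% Wilson interval 50.1 to 51.3) and 62.3% (61.9 to 62.7) of plain counts. Slc16a3 (MCT4), the transporter of cells that export lactate, had 109 and 68.0 CPM. Slc16a1 (MCT1), which carries lactate both ways, had 25.7 and 19.9 CPM. Slc16a3 held 81.3% and 77.7% of the pair per kb.

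**Figure D2:**
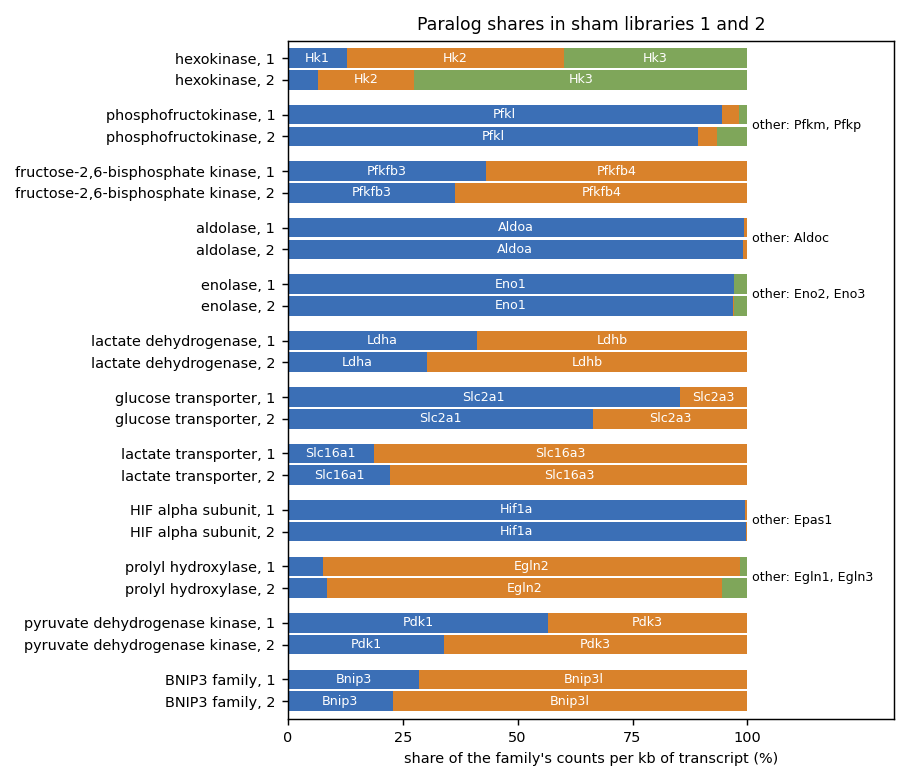
Share of each family's counts per kb of longest transcript (%), from 0 to 100, for 12 paralog families in sham libraries 1 and 2. Shares are among the genes of the set, so Slc2a5, Slc2a8, Slc16a7, Pdk2 and Hif3a are left out. The upper bar of each pair is library 1, and the leading member changes between the libraries only for the hexokinases (Hk2, then Hk3) and the pyruvate dehydrogenase kinases (Pdk1, then Pdk3).

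HIF subunits were unequal. Hif1a (chr12:73901375-73947530, plus strand), the alpha subunit of HIF-1, had 97.0 and 41.7 CPM. Epas1, the alpha subunit of HIF-2, which is best known from endothelium, had 0.513 and 0.170 CPM from 12 and 7 counts. Hif1a held 99.5% and 99.7% of this pair per kb. Hif3a, another alpha subunit, named after its values were seen, had 44 and 15 counts, and with it the share of Hif1a was 98.2% and 99.0%. Arnt (chr3:95434388-95497240, plus strand), the beta subunit, had 58.8 and 19.8 CPM. Hif1a and Arnt were more than 2-fold lower in library 2, as were 25.9% of all counted genes. With TMM and DESeq2 scaling, which are described below, the log2 ratio of Hif1a was -0.99 and -0.94, within 2-fold. Both subunits were within 2-fold once GC content and transcript length were adjusted for.

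Oxygen sensors were led by 1 hydroxylase. Egln2 (PHD1) had 79.7 and 50.5 CPM, Egln1 (PHD2), the main regulator of HIF-1 in most tissues, had 11.5 and 8.46 CPM, and Egln3 (PHD3), itself induced by HIF and shown above with its single core, had 1.67 and 4.16 CPM. Per kb Egln2 was 90.8% and 86.0% of the 3 hydroxylases (88.4 ± 3.41%, SD, n = 2). Vhl, the substrate receptor that binds the hydroxylated alpha subunit, had 149 and 148 CPM, among the closest pairs of values of the set.

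Hypoxia response targets spanned a wide range. P4ha1, a subunit of collagen prolyl hydroxylase, was the highest with 338 and 333 CPM. Bnip3l (NIX) and Bnip3, mitochondrial receptors for mitophagy, had 125 and 220.1 CPM and 26.9 and 35.1 CPM, and Bnip3l held 71.4% and 77.2% of the pair per kb. Mif, a cytokine with a short transcript, had 92.7 and 61.3 CPM. Pdk1, a kinase that shuts pyruvate dehydrogenase and so limits the breakdown of pyruvate in mitochondria, had 112 and 65.7 CPM. Its relative Pdk3 had 34.9 and 52.1 CPM. Per kb the leading kinase changed, with Pdk1 at 56.6% and 34.0% of the pair. In plain counts Pdk1 led in both mice, with 76.1% (95% Wilson interval 74.7 to 77.5) and 55.8% (54.4 to 57.2). The sensitive hypoxia markers Ndrg1 and Ankrd37 were barely present, with 38 and 249 counts and with 30 and 97 counts. That is 1.63 and 6.05 CPM for Ndrg1, and 1.28 and 2.36 CPM for Ankrd37.

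Per kb of transcript, the order of the 40 genes began with Ldhb at 596 ± 258 CPM per kb (SD, n = 2), Eno1 at 452 ± 87.1, Aldoa at 431 ± 67.2, Ldha at 314 ± 35.5 and Pkm at 243 ± 37.3. It ended with Egln3 at 1.09 ± 0.661, Ndrg1 at 0.948 ± 0.773, Eno2 at 0.360 ± 0.0538 and Epas1 at 0.0619 ± 0.0440. Of 39 pairs of neighbours in this order, 33 had ranges that overlapped between the mice, and 25 turned their order from one library to the other. The 6 pairs whose ranges stood apart were Aldoa above Ldha, Ldha above Pkm, Pkm above Tpi1, Mif above P4ha1, Ndrg1 above Eno2 and Eno2 above Epas1, and in 5 of them the counting intervals were also apart in each library. The exception was Ndrg1 above Eno2, which in library 1 were 0.401 and 0.398 CPM per kb. Ldhb, Eno1 and Aldoa overlapped in range but had the same order within both libraries. The counting intervals of Ldhb and Eno1 were apart in both libraries. Those of Eno1 and Aldoa were not, and in library 1 these genes were at 390 and 383 CPM per kb. Of 12 families, 10 had the same leading member in both mice.

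The difference between the mice was examined gene by gene as the log2 ratio of CPM, library 2 over library 1. With 2 mice of 1 group, no test of a difference was possible, and intervals below are exact binomial intervals for counting error only. The common biological coefficient of variation over 13455 genes was 0.483. The 39 counted members had a median log2 ratio of 0.08, with 20 higher and 19 lower in library 2, against a median of -0.26 over all 13445 counted genes. Past 2-fold in either direction were 9 members, beside 31.7% of all counted genes. The 5 higher members stood beside a background of 5.74%, and the 4 lower members beside 25.9%. Scaling by edgeR's TMM moved the median of all genes to -0.03. Past 2-fold were then 10 members higher, beside 8.32% of all counted genes, and 2 lower, beside 20.1%.

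Higher in library 2 were Ndrg1 (log2 ratio 1.90, 95% interval 1.40 to 2.43), Slc2a3 (1.45, 1.32 to 1.57), Egln3 (1.32, 0.81 to 1.86), Gpi1 (1.28, 1.23 to 1.34) and Pfkp (1.16, 0.96 to 1.36). These genes take in, isomerise or phosphorylate sugar, except Egln3, an oxygen sensor, and Ndrg1, a stress response gene. Lower were Arnt (-1.57, -1.70 to -1.44), Hk2 (-1.24, -1.30 to -1.18), Hif1a (-1.22, -1.31 to -1.13) and Hk1 (-1.04, -1.16 to -0.91). Ratios in the lower group fell between the 5th percentile (-2.19) and the median of all genes, whereas the 5 higher genes were above the 95th percentile (1.11). The neutrophil marker sum moved the same way as the higher genes, from 5095 to 62274 CPM, and its part in their ratios was not tested.

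**Figure D3:**
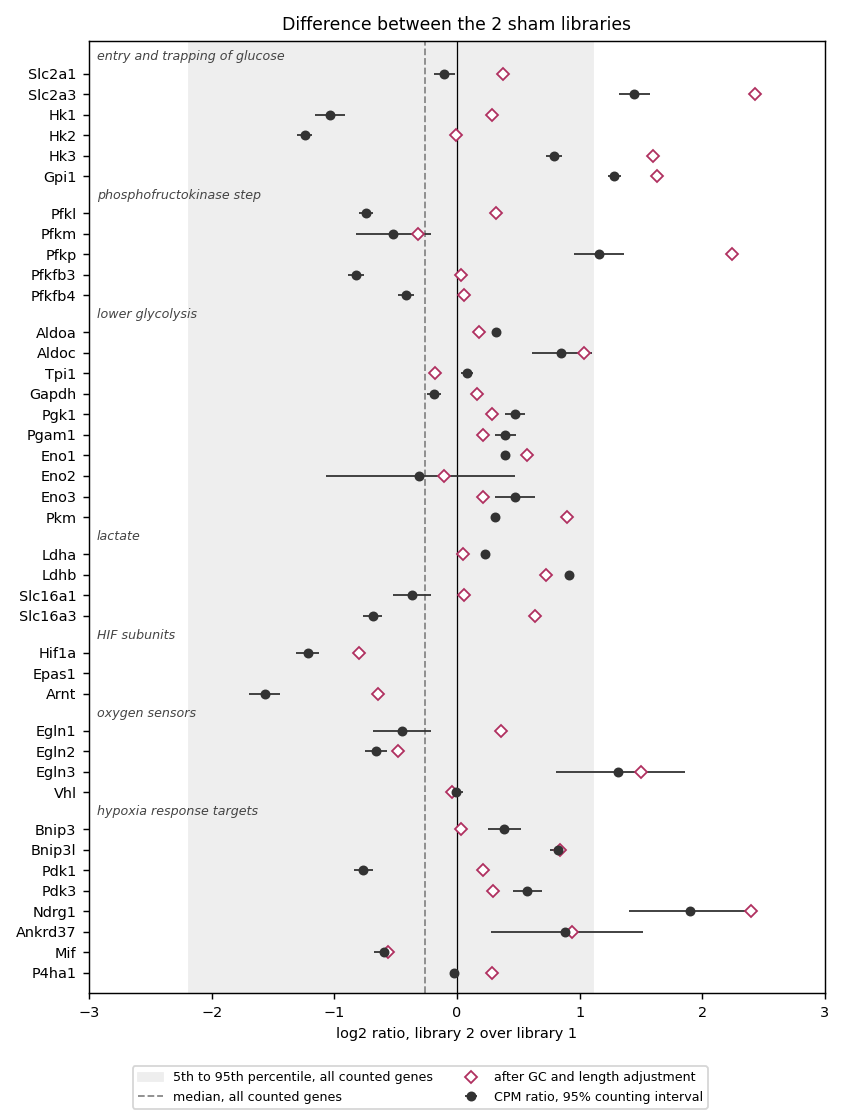
Log2 ratio of CPM, library 2 over library 1, for the 39 counted genes (filled circles with 95% counting intervals) and the same ratio after adjustment for GC content and transcript length (open diamonds), with the 5th to 95th percentile of all counted genes shaded and their median dashed. Epas1 has no point, the 5 genes to the right of the shading are Ndrg1, Slc2a3, Egln3, Gpi1 and Pfkp, and Arnt and Hk2 lie furthest to the left.

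The ratio also ran with transcript length. Over 13439 genes its Spearman rho with length was -0.38 and with GC content -0.14, and over the 39 members the values were -0.36 and -0.18. These are descriptions across genes of the same 2 libraries. With the genes cut by length into 10 bins of equal size, the median ratio was 0.15 in bin 2, 0.17 in bin 3 and -1.05 in bin 10, which holds the longest transcripts. Arnt, Hif1a, Hk1 and Hk2 have longest transcripts of 4325, 4724, 4278 and 5513 bases, where the median gene was also lower in library 2. When the median of genes of similar GC content and length was subtracted from each ratio, Hk2 came to -0.01, Hk1 to 0.29, Hif1a to -0.80 and Arnt to -0.64. No member was then more than 2-fold lower, beside 12.7% of all genes. The ratios of the higher genes rose, because the medians subtracted from them were negative, so the rise is no independent check of them. Pfkp came to 2.24, Slc2a3 to 2.43, Ndrg1 to 2.40, Gpi1 to 1.63 and Egln3 to 1.5, and Hk3 and Aldoc joined them with 1.60 and 1.03, so 7 members were more than 2-fold higher, beside 9.69%. The longest transcripts of Slc2a3, Pfkp and Ndrg1 have 6253, 8681 and 4049 bases. Their longest protein-coding transcripts, which the adjustment did not use, have 3959, 4145 and 2889. The sign differed between the measured and the adjusted ratio in 12 of 39 members, among them Slc2a1, Gapdh and Pdk1. The same share was not taken over all genes, so this count is not read as a feature of the set.

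**Figure D4:**
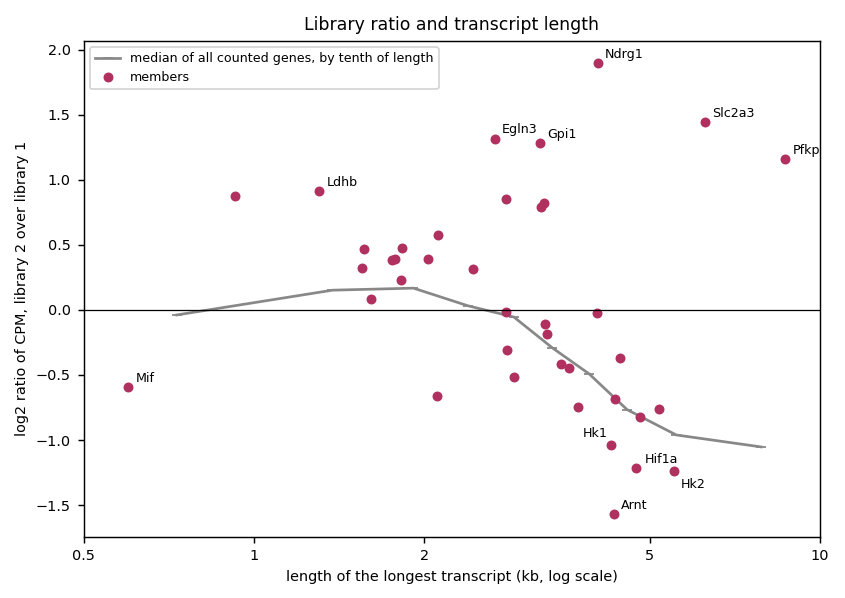
Log2 ratio of CPM, library 2 over library 1, against the length of the longest transcript (kb, log scale) for the 39 counted genes (points) and the median of all counted genes in each of 10 bins of length (line). The line bends from 0.17 in bin 3 to -1.05 in bin 10, Hk1, Hif1a, Hk2 and Arnt lie near or under it, and Slc2a3, Pfkp, Ndrg1, Gpi1 and Egln3 lie far above it.

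Other genes of these pathways, a list of 48, gave the surroundings. Of them 36 were counted, 3 were more than 2-fold higher in library 2 and 7 more than 2-fold lower, read beside the same 5.74% and 25.9%. Besides Slc2a5, the highest levels belonged to the pentose phosphate pathway, which branches off at glucose-6-phosphate to make NADPH. Taldo1 (transaldolase) had 306 and 602 CPM, Tkt (transketolase) 264 and 303 CPM, G6pdx, the entry enzyme, 137 and 310.3 CPM, and Pgd, the next dehydrogenase, 227 and 191 CPM. Adpgk, an ADP-dependent glucokinase, had 67.1 and 198 CPM. The ratios furthest above 0 among well-counted genes were those of Adpgk (1.56), G6pdx (1.18) and Taldo1 (0.98). Furthest below were Cited2 (-2.42), which restrains HIF by competing for its coactivator, at 134 and 25.01 CPM, the histone demethylase Kdm3a (-1.68) at 57.1 and 17.8 CPM, and Hif1an (-1.28), the asparagine hydroxylase that blocks the coactivator, at 38.1 and 15.7 CPM. After the adjustment for GC content and length, Cited2 was at -2.39 and Kdm3a at -1.23, whereas Hif1an was at -0.04.

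Some genes of this list, among them isoforms of other tissues, had 3 counts or fewer in library 1. Pgk2 of testis and Pklr of liver and erythrocytes had 0 counts in both libraries, which allows up to 0.128 CPM in library 1 and 0.0729 CPM in library 2. Slc2a4, the insulin-responsive transporter, had 0 and 2 counts, and Plod2, a lysyl hydroxylase, 0 and 1. Hkdc1 had 1 and 7 counts and Pdk4 had 3 and 9. Ldhc, the lactate dehydrogenase of testis, had 3 counts in library 1 and 173 in library 2.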

How the data were processed

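Microglia were sorted from 2 sham mice and sequenced, and per the labels the authors mapped reads with HISAT2 to GRCm38 and counted them per gene with HTSeq. The deposited values were raw counts per Ensembl gene, one file for each mouse, with no normalization by the authors, beside gene starts, ends and lengths. Which annotation release, tool versions and strand option were used is not given in the sources used here. Symbols came from GENCODE M21 for 53620 of 53801 identifiers, and starts are given from 1. The genes and lists were chosen with earlier results of these data known.

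CPM was the count over the total of 23381026 or 41142609. A gene was counted with at least 10 counts in both libraries, and a count of 0 allowed 3 counts. Values per kb used the longest transcript. Ratios carried exact 95% binomial intervals and shares Wilson intervals, both for counting error only. The adjustment subtracted the median ratio of genes in the same bin (10 bins each of GC content and length, at least 20 genes). This step was tested on simulated data with an added GC trend and less variation than in these libraries. No length trend was added, so the length part was not tested. Gapdh-like copies were found with BLAST 2.17.0 (at least 90% identity, 300 bases and 50% of the copy). Promoter sequences were from RefSeq (GRCm38.p6). All 40 genes were named, and of the other pathway genes the 6 of highest mean CPM, the 3 furthest ratios in each direction with at least 100 mean counts, and those at the floor, of which 1 is not reported here. The libraries belong to 1 group, so no test was run. edgeR 4.0.16 gave TMM sizes and the common dispersion, and DESeq2 1.42.0 size factors, as alternatives, in R 4.3.3. Other steps used Python 3.11.15, numpy 2.4.6, scipy 1.17.1, pandas 2.3.3 and matplotlib 3.10.9.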

Additional observations from a re-analysis of the deposited data

How the results depend on the processing

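Summed levels of the role groups, the number of genes counted and the median ratio moved by less than the spread between the mice under every alternative tried for them. The number of members more than 2-fold higher in library 2 was 5 as reported, 10 with edgeR's TMM, 10 with DESeq2's size factors, 10 at a fold of 1.5 and 1 at a fold of 3, beside 5.74%, 8.32%, 9.28%, 12.6% and 2.94% of all counted genes. The number lower was 4 as reported, 2 with TMM, 1 with DESeq2's size factors, 0 with the adjustment for GC content and length, 10 at a fold of 1.5 and 0 at a fold of 3, beside 25.9%, 20.1%, 19.0%, 12.7%, 38.3% and 12.8%. Adjustment for GC content alone, chosen after seeing the data, gave 10 higher and 2 lower (9.05% and 19.1% of all genes), and shares per kb of the longest protein-coding transcript were also added then. Ratios of single members were less stable. Over the alternatives, 148 values of these ratios were classed as moved, 89 as the same and 1 as reversed. The ratio of Hk1 reversed from -1.04 to 0.29 when the median of genes of like GC content and length was subtracted. The class of reversed values does not hold every change of sign. With the same adjustment, 12 of 39 members changed sign, as given above. Paralog shares moved by less than the spread in 107 cases and by more in 33, and 9 of 12 families kept their leading member under every length setting in both mice. Leaving out either mouse leaves 1 library and no ratio. No paired analysis was possible because both libraries belong to the same group. With 2 mice, the spread is known poorly. Counting intervals crossed the 2-fold line for Pfkp, Hk1 and Egln3, which were past it, and for Aldoc, Ankrd37 and Eno2, which were not. They were wide for Epas1, Eno2 and Ankrd37, and that of Epas1, which was not counted, also crossed the line.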

Other observations

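Genes that carry pyruvate into mitochondria and the subunits of pyruvate dehydrogenase, which acts on it there, were measured too, and were named after their values were seen. Pdhb, the beta subunit of pyruvate dehydrogenase, had 92.0 and 149 CPM, and Pdha1, the alpha subunit that the kinases act on, had 45.0 and 45.5 CPM. Dlat, its acetyltransferase subunit, had 34.4 and 27.8 CPM. Mpc2 and Mpc1, which form the mitochondrial pyruvate carrier, had 47.2 and 82.3 CPM and 34.0 and 45.3 CPM. By CPM these genes were within 2-fold between the mice, as were 68.3% of all counted genes, and Mpc2 passed 2-fold with TMM (log2 ratio 1.03) and DESeq2 scaling (1.08). Vegfa and Car9, both known hypoxia targets, were near the floor of the counted range, and moved in opposite directions. Vegfa had 2.99 and 0.826 CPM from 70 and 34 counts, and Car9 had 0.813 and 2.99 CPM from 19 and 123 counts.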
